A study of Homo sapiens with 2 samples.

Results

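Differentiated cells of the intestinal lining are marked by a small number of genes, and 10 of them were examined here for H3K27me3 in HCT116, an established human colon carcinoma line. The rule lists them by name and by the position of their starts on hg19, given in whole kb, and uses no measured value, though the set was drawn up with earlier results of these data known. The set held the goblet cell genes MUC2 and TFF3, the absorptive cell genes FABP1, ALPI, CA1, CA2, SI, SLC26A3 and GUCA2A, and the enteroendocrine gene CHGA. Goblet cells release mucus, absorptive cells take up nutrients, water and ions, and enteroendocrine cells release hormones. H3K27me3 is the trimethyl mark that Polycomb repressive complex 2 places on lysine 27 of histone H3. It is known for covering genes kept silent in a given lineage, and it can also be missing from silent genes that are held off in other ways, so its absence does not show that a gene is on.

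The series held 1 group, HCT116 cells cultured in McCoy's 5A medium with serum and fixed with formaldehyde, in 2 libraries that the labels describe as biological replicates. No treatment, second antibody, input library or RNA measurement was used here. The depth was 53187504 reads for replicate 1 and 97031399 for replicate 2, given as counts in bins of 1 kb. The level of a bin is its read count over the library's mean of listed autosomal bins, equal to 22.0 reads for replicate 1 and 37.5 for replicate 2. Starts were given in whole kb, so the bin called the start bin below may be the neighbour of the bin that holds the start, and positions of single bins relative to a start are uncertain by 1 kb. The level of a gene is the mean over the 11 bins within 5 kb of its start, with bins not listed counted as 0. Each of the 10 genes thus gave 1 window, out of 2672367 autosomal windows of the same length with a read in either library. Counting error, widened by the dispersion of 2.68 between the libraries, lay between 4.02% and 28.05% of a gene's level, and SI, with the fewest reads, had the largest. No correction for copy number or mappability was made.

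The promoter sequences of 3 of the genes are shown because their genes stood at the top and at the bottom of the levels described next. They are the 250 bases before the start in RefSeq on GRCh38.p14, each on the strand of its gene, with every CpG in capitals. FABP1 lies at chr2:88128063-88128312 on the minus strand, CHGA at chr14:92922900-92923149 on the plus strand and SI at chr3:165078497-165078746 on the minus strand.
FABP1: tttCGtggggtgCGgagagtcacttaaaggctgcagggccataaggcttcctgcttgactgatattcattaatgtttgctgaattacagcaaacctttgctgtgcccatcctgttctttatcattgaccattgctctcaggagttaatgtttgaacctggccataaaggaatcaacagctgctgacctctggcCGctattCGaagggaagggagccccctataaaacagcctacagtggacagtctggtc
CHGA: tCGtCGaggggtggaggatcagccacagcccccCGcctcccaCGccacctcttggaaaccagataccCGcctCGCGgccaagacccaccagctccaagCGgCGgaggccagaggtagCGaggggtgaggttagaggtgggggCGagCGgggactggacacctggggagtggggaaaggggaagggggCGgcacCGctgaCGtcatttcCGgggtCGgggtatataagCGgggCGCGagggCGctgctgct
SI: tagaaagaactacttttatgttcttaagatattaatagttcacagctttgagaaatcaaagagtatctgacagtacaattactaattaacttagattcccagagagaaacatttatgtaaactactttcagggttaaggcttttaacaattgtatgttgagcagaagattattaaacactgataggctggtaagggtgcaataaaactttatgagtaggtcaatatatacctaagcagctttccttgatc

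These sequences differed widely in CpG content. CHGA held 21 CpGs in 250 bases, FABP1 held 4 and SI held 0. RefSeq promoters of 300 bases, of which 50 lie after the start, were matched for 7 of the 10 genes. In them the observed over expected CpG ratio was 0.678 in CHGA, 0.374 in FABP1, 0.334 in MUC2, 0.269 in GUCA2A, 0.263 in ALPI, 0.0852 in SLC26A3 and 0 in SI, against a median of 0.58 over 27305 promoters. CHGA was the only one of the 7 above that median. The GC share was 69.3% in CHGA, 50% in FABP1 and 32.7% in SI, against a median of 58.3%.

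Letters known from the binding sites of 3 kinds of intestinal regulator were counted on both strands of the same 300 bases. GTTAAT, part of the site of HNF1 factors, occurred 2 times in SLC26A3 and 1 time each in FABP1 and SI, and 6.89% of all promoters held it. ATAAA, the core of CDX2 sites, which can overlap a TATA box, occurred 4 times in SI, 3 times in FABP1 and 1 time in MUC2, and 35.8% of all promoters held it. GATAA, the core of GATA factor sites, which can share letters with ATAAA, occurred 3 times in GUCA2A and 1 time each in MUC2, FABP1 and SI, and 23.2% of all promoters held it. CHGA and ALPI held none of the 3. These matches describe the letters only.

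The 10 genes did not carry H3K27me3 alike. FABP1 and CHGA stood at over 3 times the library mean, SI stood far under the library mean, and the other 7 genes lay in between. A window was called enriched where its level reached 2 in both libraries and its reads also exceeded the library mean by a Poisson test (one-sided, Benjamini-Hochberg adjusted over all windows, adjusted p under 0.05). By this, 2 of the 10 genes were enriched, against 13.6% of all windows. A window was called low by the mirror test with a level of at most 0.5, which held for 1 of the 10, SI, against 57.8% of all windows. The levels of the other 7 lay between 0.5 and 2 in both libraries, where 23.3% of all windows lay. The median over the 10 genes was 1.26 in replicate 1 and 1.22 in replicate 2, against a median window of 0.335 and 0.359. All windows include long stretches without genes, and other gene starts on hg19 were not used here, so these shares compare the genes with the genome and not with other genes. The number enriched followed the scaling: relative to the median autosomal bin, 8 of the 10 genes passed, against 29.2% of all windows.

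**Figure D1:**
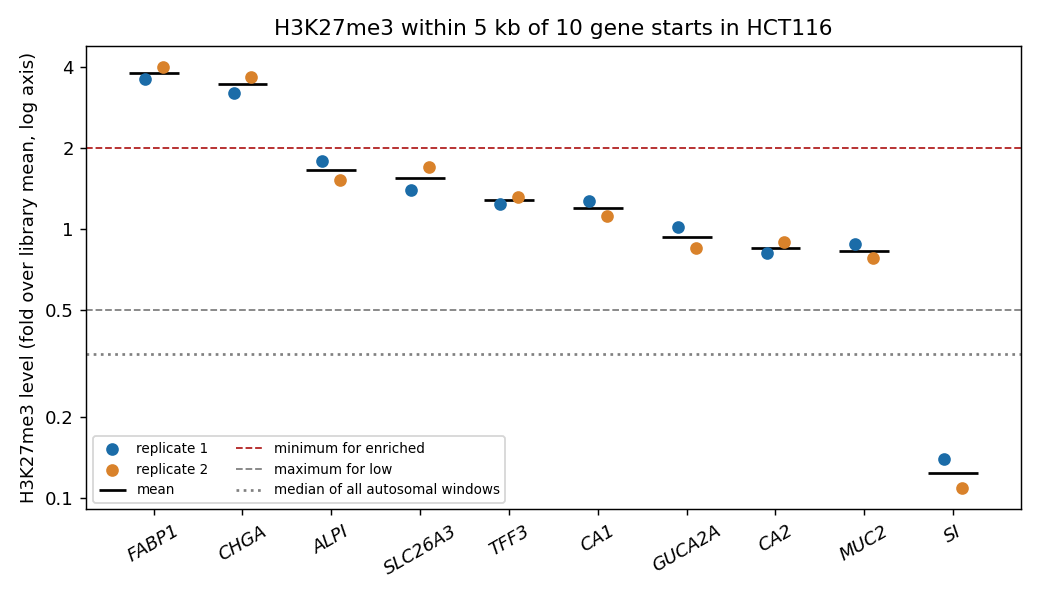
H3K27me3 level within 5 kb of each start (vertical log axis, fold over the library mean) for the 10 genes (horizontal axis), with 1 point per library, the mean as a bar, dashed lines at 2 and 0.5 and a dotted line at the median of all autosomal windows. FABP1 and CHGA lie above 2 in both libraries, SI lies at 0.140 and 0.109, and the other 7 genes lie between the dashed lines.

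In order of the mean level, the genes formed groups within which neighbours overlapped between libraries. FABP1 and CHGA overlapped each other, and neither overlapped ALPI, the next. ALPI overlapped SLC26A3, and TFF3 overlapped CA1. GUCA2A overlapped CA2, which overlapped MUC2. The ranges did not overlap between SLC26A3 and TFF3, between CA1 and GUCA2A, or between MUC2 and SI. With 2 libraries these gaps are a description with no test. The 3 cell lineages were spread over this order. The goblet genes had mean levels of 0.831 and 1.28, the absorptive genes ran between 0.125 and 3.82 with a median of 1.20, and the enteroendocrine gene stood at 3.46.

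**Figure D2:**
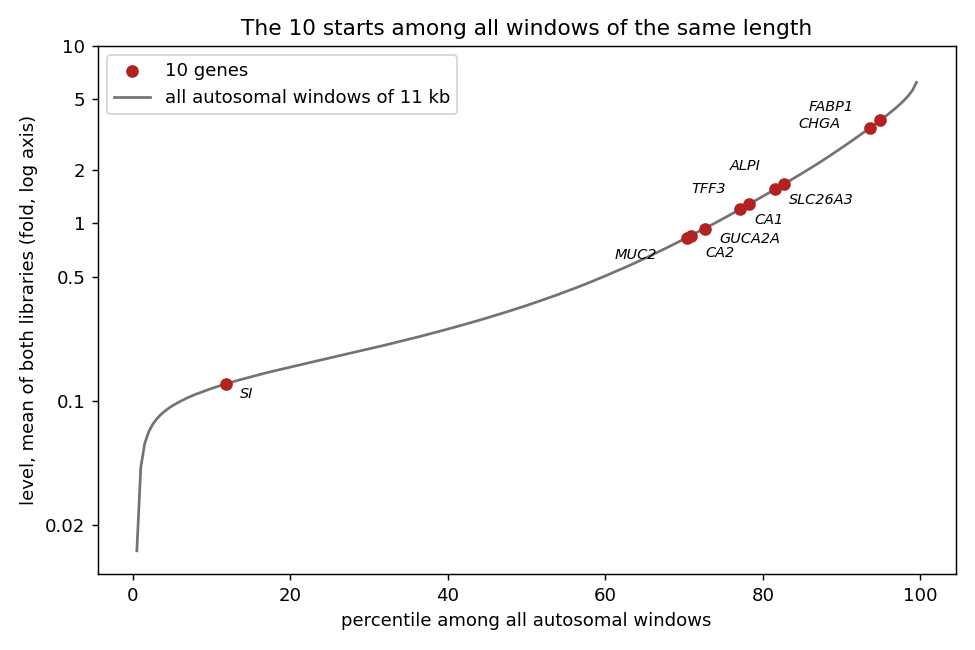
Mean level of both libraries (vertical log axis, fold) for the 10 genes as points and for all autosomal windows of 11 kb as a line, against the percentile among those windows (horizontal axis). FABP1 lies at percentile 94.9, CHGA at 93.6 and SI at 11.8, and the other 7 genes lie between 70.3 and 82.6.

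FABP1, which encodes the fatty acid carrier of absorptive cells and of the liver, had the highest level of the 10. Its window, 88423001 to 88434000 on chromosome 2, held 875 reads in replicate 1 and 1658 in replicate 2, and its level was 3.62 and 4.02, or 3.82 ± 0.283 (SD, n = 2). All 11 bins were at or above 2 in both libraries. The mark was continuous across the start and thinner close to it: the lowest bin of replicate 1 lay 1 kb from the start bin towards higher coordinates with 46 reads, and that of replicate 2 was the start bin with 96 reads, against up to 108 and 208 reads elsewhere in the window. The start bin stood at 0.697 and 0.615 of the mean of the other 10 bins, a ratio chosen after its values had been seen. Of all enriched windows, 10.4% had a centre bin that low in both libraries. The start lay inside a domain of 45 kb, from 88400001 to 88445000. Domains here are runs of enriched 5 kb bins with gaps of at most 1 bin, and 14.7% of autosomal 5 kb bins were enriched. Domain values have a scale of their own: gaps are left out, and the reference is the mean of listed 5 kb bins. They are thus not comparable with levels from 1 kb bins. On this domain scale the domain stood at 4.25 in replicate 1 and 4.15 in replicate 2. The domain covered both sides of the start, and beyond it, 20 to 30 kb towards higher coordinates, the level was 0.536 and 0.613. The nearest protein-coding genes in the GRCh38 gene order are SMYD1 and KRCC1 on one side and THNSL2 and FOXI3 on the other.

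CHGA, which encodes chromogranin A, a protein of the secretory granules of endocrine cells, stood next. Its window, 93384001 to 93395000 on chromosome 14, held 781 and 1524 reads, and its level was 3.23 in replicate 1 and 3.69 in replicate 2, or 3.46 ± 0.328 (SD, n = 2). In each library 10 of the 11 bins were at or above 2, and the same 10 were so in both. The exception was the bin given as the start, which held 30 reads in replicate 1, between neighbours with 69 and 93, and 55 reads in replicate 2, between neighbours with 157 and 108. The start bin was thus at 0.400 and 0.374 of the mean of the other 10 bins. A centre bin that low in both libraries was found in 2.53% of all enriched windows. This ratio was chosen after its values had been seen.

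The mark at CHGA was one-sided. The start lay inside a domain of 55 kb, from 93340001 to 93395000, which ran 49 kb from the start towards lower coordinates, the side outside the gene, and ended 5 kb past the start on the gene side. From 6 to 50 kb the level was 3.61 in replicate 1 and 3.71 in replicate 2 on the outer side, against 0.182 and 0.230 on the gene side. A difference between sides of at least 16.1-fold, the smaller of the libraries, in the same direction in both was found in 0.663% of 2662844 windows. The gene is known as a short one, so most of this stretch on its gene side lies beyond its end. Gene ends on hg19 were not used here, so at every gene the gene side gives a direction and can reach past the gene. Within the outer stretch, the bin 12 kb from the start held 0 reads in replicate 1 and 2 in replicate 2, with 56 and 113 reads in the bin next to it on the far side. GOLGA5 and LGMN are the nearest protein-coding genes on the outer side, and ITPK1 and MOAP1 on the gene side.

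**Figure D3:**
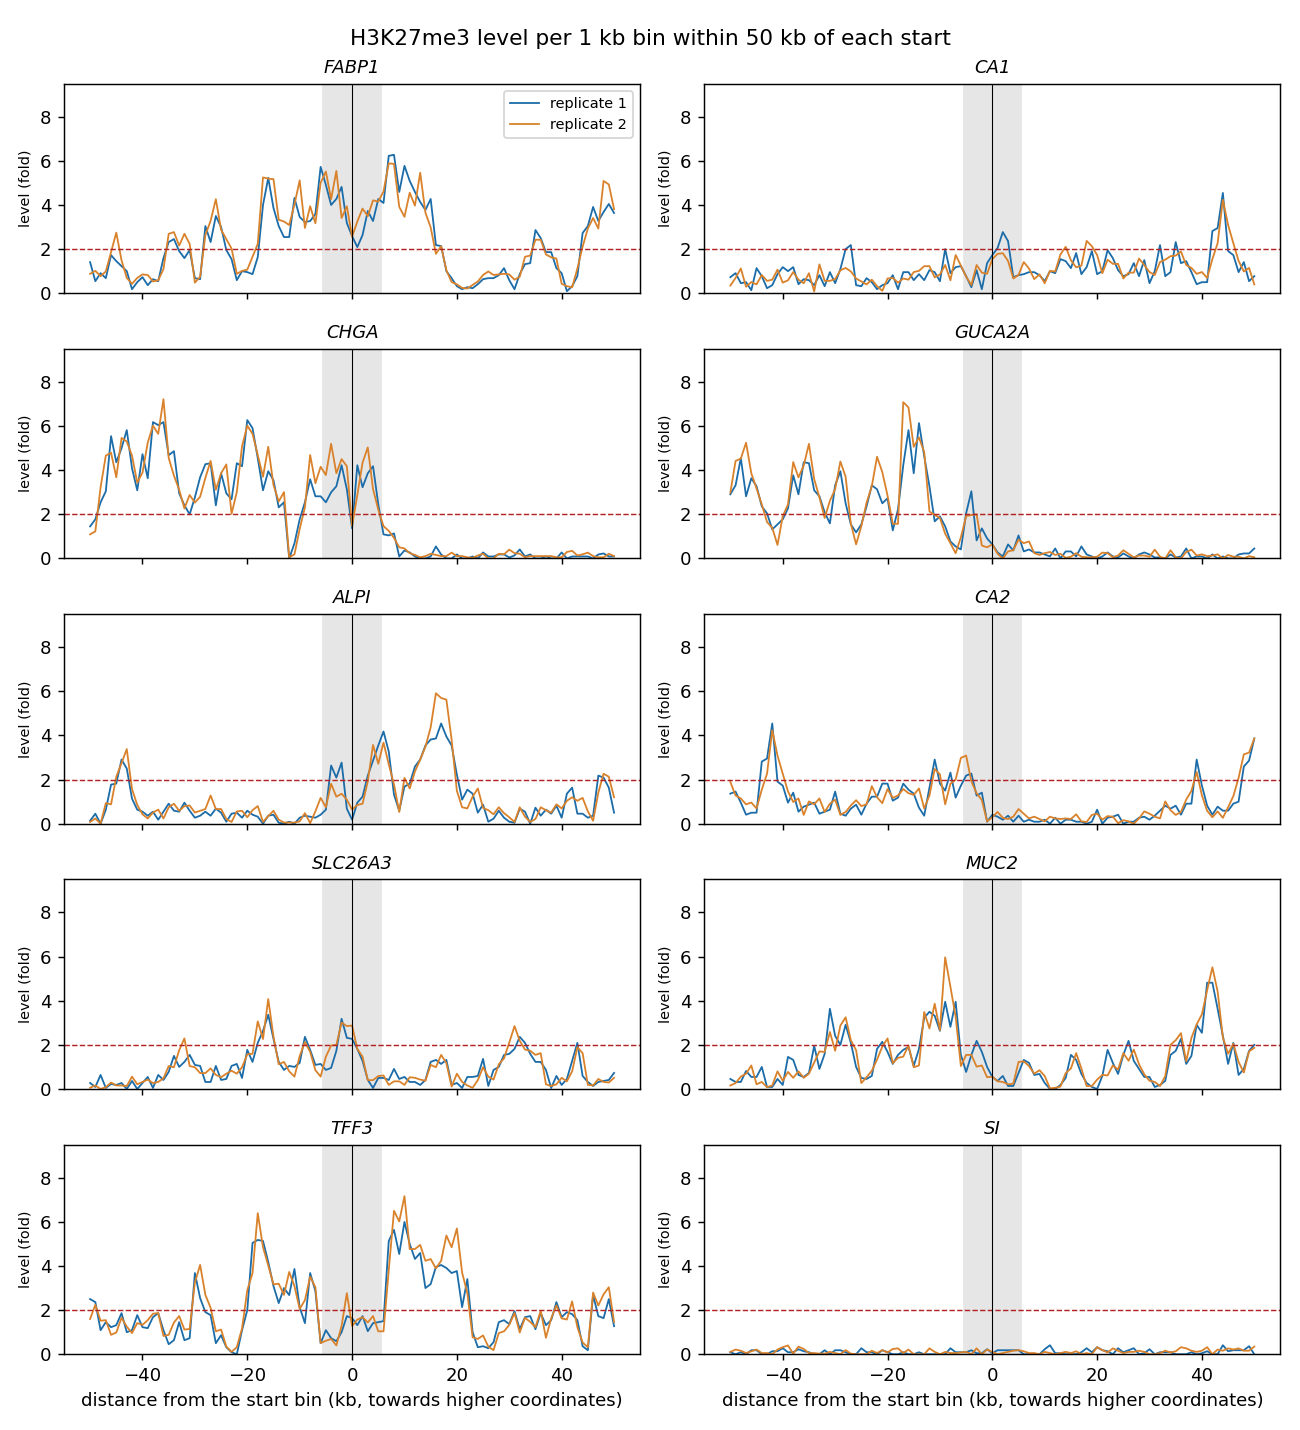
H3K27me3 level per 1 kb bin (vertical axis, fold over the library mean) against the distance from the start bin (horizontal axis, kb towards higher coordinates), 1 panel per gene and 1 line per library, with the window of 5 kb either side shaded and a dashed line at 2. FABP1 lies inside a domain, and CHGA and GUCA2A lie at or near an edge with a low side of under 0.25. TFF3 lies between 2 high blocks, and SI has no bin at 2 within 50 kb.

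The other absorptive genes lay lower. ALPI, which encodes the alkaline phosphatase of the brush border, held 435 and 632 reads in its window, 233316001 to 233327000 on chromosome 2. Its level was 1.80 in replicate 1 and 1.53 in replicate 2, or 1.66 ± 0.189 (SD, n = 2). The bin given as the start was the lowest of the 11 in each library, with 4 reads in replicate 1 and 24 in replicate 2, against up to 78 and 134 reads elsewhere in the window. A centre bin that low relative to the other 10 in both libraries was found in 0.394% of all enriched windows, though ALPI itself was not enriched. The share is thus not a rate for windows at the level of ALPI, and the ratio was chosen after its values had been seen. The mark was higher on the gene side, at 3.23 and 3.79 from 10 to 20 kb, where the highest bin held 100 reads at 17 kb in replicate 1 and 222 reads at 16 kb in replicate 2. Both bins lay in a domain of 15 kb, from 233325001 to 233340000, that began 4 kb from the start. ALPI has the related phosphatase genes ALPG and ALPP next to it on the side of lower coordinates and ECEL1, an endopeptidase family gene, on the gene side. From 6 to 50 kb the level was 1.47 and 1.61 on the gene side, against 0.571 and 0.665 on the outer side. At a minimum of 1.5-fold in place of 2, ALPI would count as enriched, as would FABP1 and CHGA, against 18.2% of all windows.

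SLC26A3, the chloride and bicarbonate exchanger of the colonocyte surface, held 338 and 707 reads from 107438001 to 107449000 on chromosome 7. Its level was 1.40 in replicate 1 and 1.71 in replicate 2, or 1.55 ± 0.223 (SD, n = 2). Here the mark formed a narrow peak over the start, in contrast to the dips at ALPI and CHGA, though not the only peak nearby. The highest bin of the window lay 2 kb from the start bin towards the gene side. It held 70 reads in replicate 1 and 113 in replicate 2, and the start bin held 50 and 108. A bin 16 kb from the start on the gene side held more, 74 and 153 reads. From 30 to 40 kb on the outer side the level was 1.34 and 1.44. At 4 kb on the outer side the bins held 1 and 15 reads. The start bin stood at 1.74 and 1.80 times the mean of the other 10 bins. The start lay in a domain of a single 5 kb bin, from 107440001 to 107445000, at 2.54 and 2.65 on the domain scale. Within 2 kb of the start the level was 2.29 as the mean of both libraries, and SLC26A3 was then called enriched, as were 13.4% of all windows. CBLL1 and SLC26A4, a related anion exchanger gene, are next on the gene side, and DLD and LAMB1 on the outer side.

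GUCA2A, which encodes guanylin, a peptide that controls fluid secretion through guanylate cyclase C, held 247 and 352 reads from 42625001 to 42636000 on chromosome 1. Its level was 1.02 in replicate 1 and 0.853 in replicate 2, or 0.937 ± 0.119 (SD, n = 2). This middle level was the mean of an uneven window. Its 5 bins on the gene side stood at 1.64 and 1.40, against 0.482 and 0.352 for the 5 on the outer side. The bins 4 and 5 kb from the start on the gene side held 45 to 74 reads over both libraries, and the bin 2 kb on the outer side held 2 reads in replicate 1 and 0 in replicate 2. From 6 to 50 kb the level was 2.74 and 3.03 on the gene side, against 0.165 and 0.175 on the outer side. A difference between sides of at least 16.6-fold in the same direction in both libraries was found in 0.623% of windows. The high side held a domain of 55 kb, from 42565001 to 42620000, whose end lay 11 kb from the start bin. Between that domain and the window the level dipped, with 12 and 9 reads in the bin 7 kb from the start. On the domain scale this high side domain stood at 3.22 and 3.34. GUCA2B, which encodes the related peptide uroguanylin, is the next protein-coding gene on that side, and FOXJ3 the next on the low side. GUCA2A and CHGA thus had edges of opposite orientation: the high side was the gene side at GUCA2A and the outer side at CHGA. These sides are directions from the start and do not show whether the genes themselves carried the mark.

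**Figure D4:**
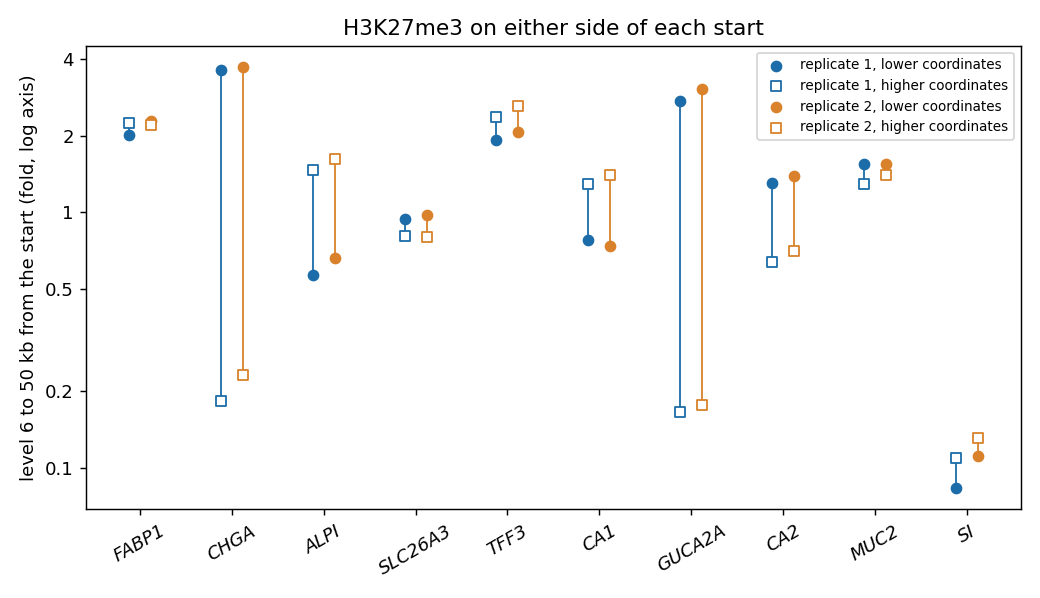
Mean level from 6 to 50 kb from the start (vertical log axis, fold) on the side of lower coordinates (filled circles) and of higher coordinates (open squares) for each gene and library. CHGA and GUCA2A have the largest differences between sides, 16.1-fold to 19.8-fold, and FABP1 has the smallest, 1.05-fold and 1.12-fold.

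SI, which encodes sucrase-isomaltase, the disaccharidase of the small intestinal brush border, had the lowest level. Its window, 164791001 to 164802000 on chromosome 3, held 34 reads in replicate 1 and 45 in replicate 2, against 242 and 413 expected at the library mean. Its level was 0.140 and 0.109, or 0.125 ± 0.0223 (SD, n = 2), and it was low in both libraries. No bin of the 11 held more than 5 reads in replicate 1 or 10 in replicate 2. The surroundings were the same: over the 101 bins within 50 kb the level was 0.101 and 0.120, at percentile 3.44 of all windows of that length, and no bin held more than 9 reads in replicate 1 or 15 in replicate 2. The nearest domain lay 3439 kb away, where the median listed bin of the autosomes lay 119 kb from one. In replicate 1, 65 of the 101 bins were listed and in replicate 2, 82, so mappability may lower these values, and its part was not tested. Over listed bins alone the level was 0.145. OTOL1 and SPTSSB are the nearest protein-coding genes on the gene side, and SLITRK3 and BCHE on the outer side.

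The goblet cell genes did not reach the minimum within 5 kb, and each had high bins nearby. TFF3, the trefoil peptide that goblet cells release with mucus, held 302 and 544 reads from 43730001 to 43741000 on chromosome 21. Its level was 1.25 in replicate 1 and 1.32 in replicate 2, or 1.28 ± 0.0493 (SD, n = 2). Its adjusted p in the Poisson test was 0.000515 in replicate 1 and 1.95e-09 in replicate 2. ALPI, SLC26A3 and CA1, not enriched either, also had an adjusted p under 0.05 in both libraries. This test did not use the dispersion between the libraries. The start of TFF3 lay in a trough between 2 high blocks. At 10 to 20 kb the level was 3.65 and 3.77 towards lower coordinates and 4.17 and 4.86 towards higher coordinates. The highest bin, 10 kb from the start towards higher coordinates, held 132 and 269 reads. It lay in a domain of 20 kb, from 43740001 to 43760000, that began 5 kb from the start bin. This domain stood at 3.97 and 4.25 on the domain scale. In the GRCh38 gene order the other trefoil genes, TFF2 and TFF1, follow on the side of higher coordinates, and ABCG1 and UMODL1 lie on the other. With 10 kb either side the level of TFF3 was 2.33 and it was called enriched, as were 13.7% of all windows. With 50 kb either side it was again called enriched, at 2.14, as were 13.2% of all windows.

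MUC2, the main gel-forming mucin of goblet cells, held 213 and 323 reads from 1070001 to 1081000 on chromosome 11. Its level was 0.880 in replicate 1 and 0.782 in replicate 2, or 0.831 ± 0.0691 (SD, n = 2). The mark thinned across the start towards the gene. Over the 10 kb on the outer side the level was 2.21 and 2.33, against 0.632 and 0.674 over the 10 kb on the gene side. The bin 3 kb into the gene side was the lowest of the window in both libraries, with 3 and 8 reads. A domain of 10 kb, from 1060001 to 1070000, ended 6 kb from the start bin. It stood at 3.13 and 3.14 on the domain scale. Farther along the gene side the level was higher again, at 2.47 and 2.75 from 40 to 50 kb. MUC2 sits in a cluster of mucin genes, with LOC124902605 and MUC6 on the outer side and MUC5AC and MUC5B on the gene side.

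**Figure D5:**
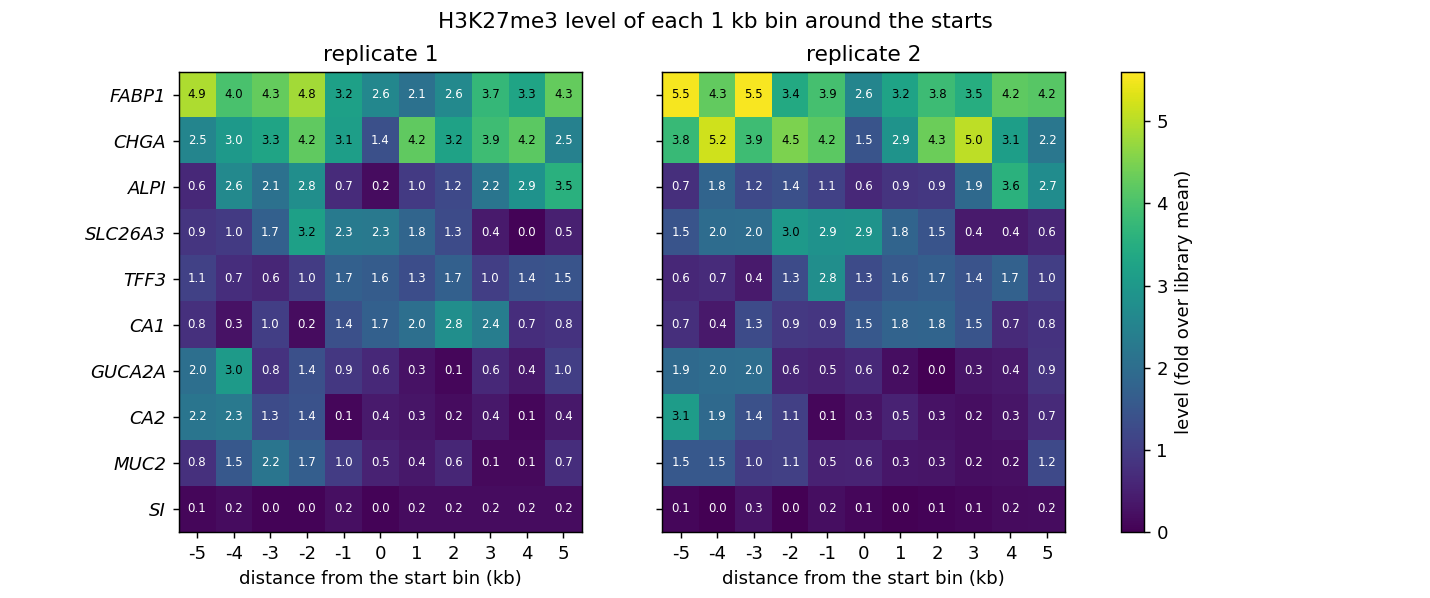
H3K27me3 level of each 1 kb bin within 5 kb of the start (colour and printed value, fold over the library mean) for the 10 genes (rows, highest mean level first) in each library (panels); the horizontal axis is the distance from the start bin in kb towards higher coordinates. CHGA and ALPI have their lowest value at the start bin in both libraries, SLC26A3 has its highest values around it, and CA2 lies under 0.7 from 1 kb before the start bin up to 5 kb past it.

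The carbonic anhydrase genes CA1 and CA2 lie close together on chromosome 8, with CA3 between them in the gene order. Both encode enzymes that interconvert carbon dioxide and bicarbonate and are known in colonocytes. CA1 held 310 and 462 reads from 86285001 to 86296000, and its level was 1.28 in replicate 1 and 1.12 in replicate 2, or 1.20 ± 0.115 (SD, n = 2). Its bins reached 61 and 68 reads at 2 kb from the start bin, with no bin at or above 2 in both libraries. CA2 held 197 and 370 reads from 86371001 to 86382000, and its level was 0.814 and 0.896, or 0.855 ± 0.0581 (SD, n = 2).

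At CA2 the mark stopped within 1 kb of the bin given as the start. Over the 10 kb towards lower coordinates the level was 1.58 in replicate 1 and 1.75 in replicate 2, against 0.218 and 0.352 over the 10 kb towards higher coordinates. The step lay between neighbouring bins: 2 kb before the start bin there were 31 and 40 reads, and 1 kb before it there were 2 and 4. The low stretch went on, at 0.109 and 0.234 from 10 to 20 kb. Farther out the level was higher again, at 0.859 and 0.850 from 30 to 40 kb and 1.23 and 1.34 from 40 to 50 kb. With 2 kb either side in place of 5 kb, CA2 had a level of 0.467 and was called low, as were 57.9% of all windows. The single domain nearest to both genes was a 5 kb bin from 86330001 to 86335000, 40 kb from CA1 and 42 kb from CA2. It stood at 2.54 and 2.04 relative to the mean of listed 5 kb bins, and not on the scale of 1 kb bins. The chromosome as a whole stood at 1.28 and 1.32, and relative to its own mean CA1 was at 0.925 and CA2 at 0.658; the part of copy number in these levels was not tested.

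Across the set, the level was above the library mean in both libraries for 6 of the 10 genes, against 25.1% of all windows. The starts of 3 genes, FABP1, CHGA and SLC26A3, lay inside a domain, against 16.2% of listed autosomal bins, and 6 lay inside or within 10 kb of one, against 24.7%. The windows of 5 genes, FABP1, CHGA, ALPI, SLC26A3 and TFF3, touched an enriched 5 kb bin, against 20.7% of all windows. The start and its surroundings were in no fixed relation: the window of 5 kb either side was higher in both libraries at 5 genes, against 34.2% of all windows, lower in both at 4, against 47.8%, and split at SI. The level within 5 kb over that from 6 to 50 kb was 1.70 and 1.79 at FABP1, 1.70 and 1.87 at CHGA, and 1.59 and 1.93 at SLC26A3. At ALPI it was 1.76 and 1.34, and at CA1 1.24 and 1.04. It was 0.581 and 0.562 at TFF3, 0.620 and 0.529 at MUC2, 0.704 and 0.532 at GUCA2A, and 0.839 and 0.857 at CA2. At SI it was 1.46 and 0.902, on opposite sides of 1. These ratios depended on the distances chosen. Against 6 to 20 kb only, the mean ratio of both libraries was 0.995 at ALPI, against 1.55 with the wider surroundings, 1.10 at FABP1, against 1.75, and 0.335 at TFF3, against 0.571. With 2 kb either side of the start against 6 to 50 kb, it was 0.997 at ALPI, 0.347 at GUCA2A, against 0.618 with 5 kb, and 0.465 at CA2, against 0.848. The direction at ALPI thus rests on the wider distances.

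No gene of the set was called different between the libraries. A binomial test of how each window's reads were divided between the libraries, with counts divided by the dispersion and Benjamini-Hochberg adjustment over all windows, called 0 of the 10 genes, against 0.000374% of all windows. At an unadjusted p under 0.05 it found 1, ALPI, against 3.86% of all windows. With counts as deposited, the test called 1, again ALPI, at an adjusted p of 0.0128, against 6.59% of all windows. At an unadjusted p under 0.05 it then found 5, against 21.4%. For ALPI the log2 ratio of replicate 2 over replicate 1 was -0.23. The dispersion comes from the same libraries and takes up real differences too. Over the 101 bins within 50 kb, the profiles of the libraries correlated with a Pearson's r of 0.744 at CA1 and of 0.883 to 0.955 at the 8 other genes apart from SI, where it was 0.103 in sparse counts. Bins of 1 gene are neighbours and not independent, so these are descriptions. The spread between the libraries may be technical.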

How the data were processed

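H3K27me3 ChIP-seq reads of 2 HCT116 libraries were aligned with BWA 0.7.12 to hg19, per the submitters' processing notes. Values are raw counts in 1000-base bins, as the text deposited by the authors states. How reads were counted, and any filter on duplicates or mapping quality, is not given in the sources used. Depth was 53187504 and 97031399 reads.

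From these counts, sums over 11 bins centred on every autosomal bin were tested genome-wide against each library's mean (Poisson) and between libraries (binomial), with Benjamini-Hochberg adjustment over 2672367 windows. The dispersion is the median scaled squared deviation over windows with at least 20 reads. Simulated counts, with levels planted on an even background unlike that of these libraries, served to check the enriched and low calls. Starts came with the choice of genes, in whole kb, and how they were rounded is not known. All 10 genes are named. The genes, lists and tests were chosen with earlier results of these data known. Gene order and promoters are from RefSeq (GRCh38.p14); no GRCh38 coordinate was used on hg19. The strand of TFF3, CA1 and CA2 was not used. Other intestinal genes planned for counting needed hg19 starts and are not analysed here. Windows of 2, 10 and 50 kb either side, other scalings and thresholds, listed bins only, and each replicate left out were tried; moving the starts by 1 kb was added after the data were seen. Tools were scipy 1.17.1, numpy 2.4.6 and pandas 2.3.3 under Python 3.11.15, with matplotlib 3.10.9 for plots.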

Additional observations from a re-analysis of the deposited data

How the results depend on the processing

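The 2 enriched genes, FABP1 and CHGA, were enriched in every setting run, and SI was low in every setting run. Some settings could only loosen these calls: leaving out a replicate, a minimum of 1.5-fold for enriched and a maximum of 0.75 for low. For FABP1 and CHGA the same holds for scaling to the autosomal median bin and for any touching 5 kb bin. With listed bins only, their windows were unchanged. Only the other settings could have undone the calls. Counts were taken as the same within 1.5 times and levels within 1 SD of the replicates. The number enriched became 8 when scaled to the autosomal median bin and 5 when any touching 5 kb bin sufficed. It was 3 with 2, 10 or 50 kb either side and at a minimum of 1.5-fold, which this rule counts as the same. The gene added was SLC26A3 with 2 kb, TFF3 with 10 and 50 kb, and ALPI at 1.5-fold. The number low became 2 with 2 kb either side, where 57.9% of all windows were low. The median level of the 10 genes, 1.24, became 1.29 and 1.34 with 2 and 10 kb either side, 3.18 scaled to the autosomal median bin, 1.16 scaled to the own chromosome and 1.28 with the starts moved by 1 kb towards higher coordinates, a setting added later. The number of genes differing between replicates, 0, became 1 with counts as deposited. The median listed bin held 9 and 14 reads, against a mean of 22.0 and 37.5, so scaling to the median raised every level. Counts as deposited leave out the division by the dispersion. Causes of the other changes were not tested. With a replicate left out, the number enriched stayed at 2 and the number low at 1. The median level then ranged from 1.22 to 1.26. The median ratio of start to surroundings, 1.16, became 0.972 without replicate 1 and 1.35 without replicate 2. In each case its 2 middle genes were CA1 and SI. At SI, in sparse counts, the ratio was 0.902 without replicate 1 and 1.46 without replicate 2, and at CA1 1.04 and 1.24. The median thus fell under 1 with SI, while CA1 stayed above 1. Of the values of single genes, 97 were the same and 63 moved. Leaving out 1 of 2 libraries cannot move their mean by more than 1 SD, so values under that setting were the same by construction. No paired analysis was possible because the libraries form 1 group only.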
